A study of Homo sapiens with 6 samples.

Results

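The let-7 target genes described here are 30 human genes that the microRNA let-7 is known or predicted to repress, chosen by name. Earlier results of these data were known when they were chosen. Of these, 27 had a probeset annotated to that gene alone, out of 18404 genes measured, and where a gene had several the probeset of highest mean over the arrays was taken. HMGA2, whose probeset is annotated to ELAC2 as well, and NRAS and C14orf28 were not analysed here. Levels were compared between 3 arrays of parental HEK293 Flp-In cells, labelled wild-type, and 3 arrays of the line made from it, labelled FHA-TRIM71 overexpression. HEK293 cells, an established human line, come from embryonic kidney, and Flp-In cells carry a recombination site for placing a transgene. FHA stands for a FLAG-HA tag, and the series title calls the expression constitutive. Both lines were grown in DMEM with glutamine and serum, and hygromycin B is named for the TRIM71 line only, so effects of transgene, drug and line history cannot be told apart. Whether the lines are single clones is not given in the sources used here, nor is whether the triplicates are separate cultures. The p-values therefore rest only on the scatter of these arrays, possibly technical.

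let-7 is a microRNA family whose mature form accumulates as cells differentiate. It pairs through its seed, the bases near its 5′ end, with sites in target mRNAs, and the Argonaute complex it guides then lowers their translation and stability. Many of its targets are growth and fetal genes, and LIN28B, itself a target, blocks let-7 maturation, so that the pair form a double-negative loop. TRIM71, known first from worms as LIN-41, is one of the classic let-7 targets and is an RNA-binding protein that represses mRNAs of its own.

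The mature sequences are shown because the shared seed is what the members have in common as targets. They were taken from RefSeq (GRCh38.p14), are written 5′ to 3′, and the seed, bases 2 to 8, is in capitals.
let-7a-5p: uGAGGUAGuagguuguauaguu
let-7b-5p: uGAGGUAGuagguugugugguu
let-7c-5p: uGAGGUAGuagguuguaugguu
let-7d-5p: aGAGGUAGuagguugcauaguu
let-7e-5p: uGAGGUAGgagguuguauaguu
let-7f-5p: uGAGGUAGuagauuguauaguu
let-7g-5p: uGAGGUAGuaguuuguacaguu
let-7i-5p: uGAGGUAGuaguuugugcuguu
miR-98-5p: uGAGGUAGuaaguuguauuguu
All 9 of these, each 22 bases long and encoded by 12 genes in all, carry the seed GAGGUAG. Outside the seed they differ from let-7a-5p at 1 to 4 positions, counted from 1 at the 5′ end. let-7c-5p differs by A19G, let-7e-5p by U9G and let-7f-5p by G12A, while let-7i-5p differs by G12U, A17G, U18C and A19U. Among 2370 mature names in that table, only 2 others have these 7 bases at the same place, miR-4458 and miR-4500.

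The array medians lay between 6.90 and 6.97 on the log2 scale, and correlations over all probesets were 0.996 to 0.997 within the groups and 0.991 to 0.994 between them. TRIM71 itself stood at 7.40 ± 0.16 (SD, n = 3) in the parental line and 10.74 ± 0.11 (SD, n = 3) in the TRIM71 line. Its probeset cannot tell the transgene's mRNA from the cell's own. Of 9 markers listed for HEK293, 8 were measured. VIM, CDH2, KRT8, KRT18, NEFL and SIX4 had parental means of at least 9.78, PAX2 stood at 7.15 and NEFM at 6.54, where the median of all probesets was 6.94. Of these 8, VIM (0.40), CDH2 (0.42) and SIX4 (0.37) rose and NEFL (−1.45) and KRT8 (−0.22) fell in the TRIM71 line, and their part in the members' changes was not tested. Of 15 markers of leukocytes, endothelium, hepatocytes, pluripotent cells and fibroblasts, 1 changed, KDR, which rose from 4.99 to 6.42, and group means lay between 3.50 and 7.66. In bulk RNA, fewer cells of a type and less RNA per cell cannot be told apart.

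Of the 27 let-7 targets, 12 rose in the TRIM71 line, 1 fell and 14 did not pass the test. A gene counted as changed where limma's moderated test over all probesets gave a p under 0.05 after Benjamini-Hochberg adjustment, and adjusted p below means this value. Rises made up 44.4% of the members against 10.0% of all genes, and falls 3.70% against 12.2%. With probesets under the median signal left out before the test, 12 of 24 members rose and 2 fell. Of 11100 genes kept there, 2380 (21.4%) rose and 2556 fell. That background is the nearer one, since most members are not dim. The median log2 change, TRIM71 minus parental, was 0.21 for the members and −0.01 for all genes. By at least 1.5-fold, 4 members rose, PRTG, NR6A1, ARID3B and IGDCC3, and 0 fell, against 1.26% and 2.71% of all genes. The 3 TRIM71 arrays lay above all 3 parental arrays for 14 members and below them for 4, where 20.2% and 23.4% of all genes did so.

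**Figure D1:**
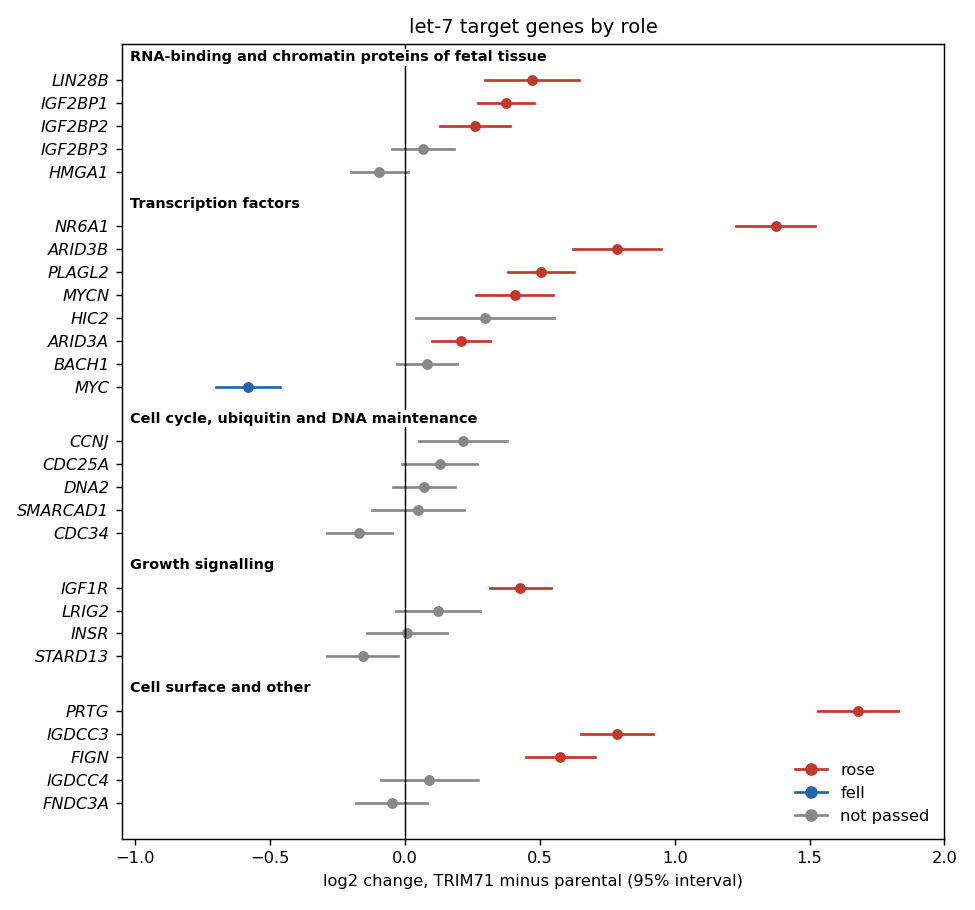
log2 change of each of the 27 members (points) with its 95% interval from the limma fit (bars), arranged by role, with red for risen, blue for fallen and grey for not passed. The rises run from 0.21 for ARID3A to 1.68 for PRTG, MYC alone is marked as fallen, and the group of cell cycle and DNA maintenance genes has no coloured point.

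Among the oncofetal RNA-binding proteins, those named for their expression in the embryo and in tumours, 3 of 4 rose. The share risen over all genes was 10.0%. LIN28B, which binds let-7 precursors and prevents their processing, had values of 9.70, 9.59 and 9.47 on the parental arrays and 10.02, 10.13 and 10.01 on the TRIM71 arrays. Every TRIM71 array was above every parental array, and the log2 change was 0.47 (SE 0.07, adjusted p = 0.0082, 1.39-fold). The 3 IGF2BP proteins bind and stabilise mRNAs such as those of MYC and IGF2.

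IGF2BP1 read 11.34, 11.32 and 11.37 in the parental line and 11.73, 11.71 and 11.72 in the TRIM71 line. Its groups were narrow and apart, with a log2 change of 0.38 (SE 0.04, adjusted p = 0.0030). IGF2BP2 read 9.63, 9.71 and 9.72 against 9.92, 10.01 and 9.90. The groups did not overlap, and the change was 0.26 (adjusted p = 0.023). That call was lost without any 1 of parental replicates 1, 2 and 3 and TRIM71 replicates 1 and 2, with an adjusted p of 0.045 to 0.072 over all 6 single omissions.

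IGF2BP3 read 10.34, 10.37 and 10.34 against 10.45, 10.44 and 10.36, so its groups overlapped. Its log2 change was 0.07 (95% interval −0.05 to 0.18, adjusted p = 0.43). The IGF2BP paralogs therefore had values of 0.38, 0.26 and 0.07, and the differences among them were not tested. HMGA1, an architectural chromatin protein, read 11.39, 11.36 and 11.37 against 11.26, 11.30 and 11.26. The TRIM71 arrays were all lower, but by −0.10, which did not pass (95% interval −0.20 to 0.01, adjusted p = 0.21). The other 2 HMGA1 probesets gave −0.09 and −0.19 and did not pass either (adjusted p = 0.34 and 0.21).

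Transcription factors made up the largest group, with 5 risen (62.5%) and 1 fallen (12.5%) of 8. Over all genes, 10.0% rose and 12.2% fell. The risen share was 60% both in the fetal RNA-binding and chromatin group and in the cell surface group. NR6A1, an orphan nuclear receptor of germ cells and early embryos, read 8.17, 8.06 and 8.23 in the parental line and 9.51, 9.58 and 9.49 in the TRIM71 line. The lowest TRIM71 array was 1.26 above the highest parental array. The change was 1.37 (SE 0.06, adjusted p = 1.7e-04), or 2.59-fold.

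ARID3B, an AT-rich DNA-binding protein, read 8.72, 8.91 and 8.84 against 9.67, 9.62 and 9.54, a change of 0.79 (SE 0.07, adjusted p = 0.0012). The groups were well apart, and its second probeset rose as well, by 0.67 (adjusted p = 0.015). Its relative ARID3A read 8.04, 7.97 and 8.01 against 8.22, 8.20 and 8.22, a change of 0.21 (adjusted p = 0.025). Centring the arrays on their medians, or leaving out parental replicate 2 or 3 or any 1 TRIM71 array, ended the ARID3A call, with an adjusted p of 0.045 to 0.095 over the 6 single omissions.

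PLAGL2, a zinc finger activator of growth genes, read 9.46, 9.46 and 9.47 against 9.90, 10.03 and 9.97. Its groups did not overlap, and the change was 0.50 (SE 0.05, adjusted p = 0.0019). MYC and MYCN went opposite ways. MYC, a driver of growth and proliferation, read 10.62, 10.63 and 10.58 in the parental line and 10.02, 10.08 and 9.98 in the TRIM71 line, and so was lower on every TRIM71 array. It fell by 0.58 on the log2 scale (SE 0.05, adjusted p = 0.0011). MYCN, the paralog of neural and embryonic tissue, read 6.37, 6.29 and 6.43 against 6.75, 6.84 and 6.72. It rose by 0.41 (SE 0.06, adjusted p = 0.0069) from a signal under the median of all probesets, where log2 values understate a fold change. HIC2, a transcriptional repressor, differed by 0.30 with overlapping groups (95% interval 0.04 to 0.55, adjusted p = 0.12). BACH1, a repressor of haem and antioxidant genes, differed by 0.08 (adjusted p = 0.31).

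**Figure D2:**
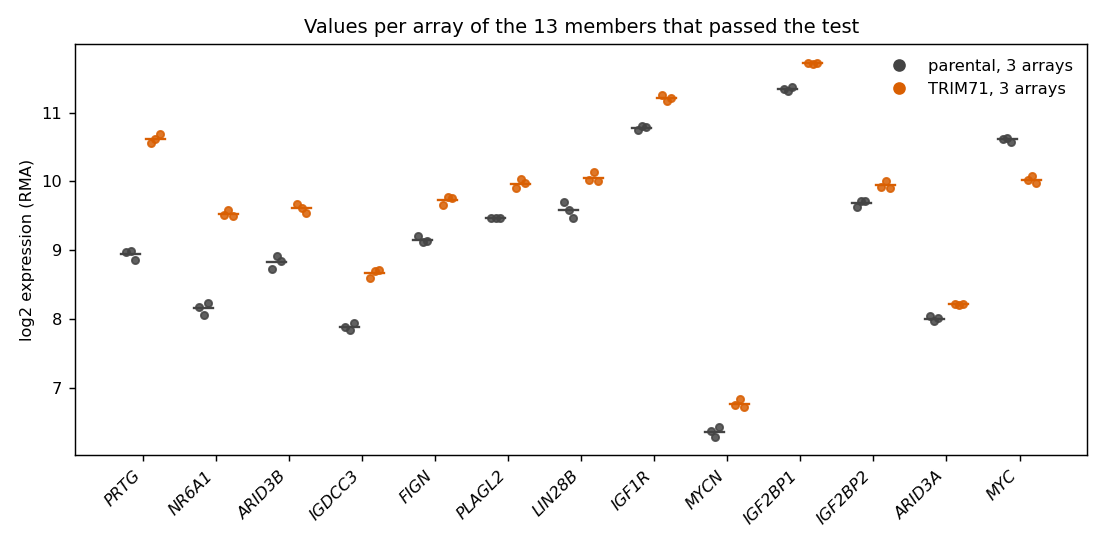
log2 expression on each array (points) and the group mean (lines) for the 13 members that passed, parental in grey and TRIM71 in orange, in order of log2 change. No gene shown has overlapping groups, and MYC, at the right, is the one with the TRIM71 arrays below.

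Cell surface genes held the largest change of all members. PRTG, protogenin, an immunoglobulin superfamily protein of the early neural tube and mesoderm, read 8.98, 8.99 and 8.85 in the parental line and 10.56, 10.61 and 10.69 in the TRIM71 line. The groups were 1.57 apart at their nearest arrays, and the change was 1.68 (SE 0.06, adjusted p = 1.1e-04), or 3.20-fold. IGDCC3, a relative of PRTG, read 7.88, 7.84 and 7.94 against 8.59, 8.70 and 8.71. It rose by 0.78 (SE 0.06, adjusted p = 6.2e-04), again with no overlap.

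IGDCC4, a further relative whose gene lies next to IGDCC3, differed by 0.09 (95% interval −0.09 to 0.27, adjusted p = 0.50), and its parental mean of 6.83 was under the median of all probesets. FIGN, fidgetin, a microtubule-severing enzyme, read 9.21, 9.12 and 9.14 against 9.66, 9.77 and 9.75. It rose by 0.58 (SE 0.05, adjusted p = 0.0015), with the groups apart. FNDC3A, a fibronectin repeat protein, differed by −0.05 (adjusted p = 0.61).

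Of the growth signalling genes, IGF1R, the receptor for insulin-like growth factors, rose from 10.78 ± 0.03 to 11.21 ± 0.04 (SD, n = 3 each), a change of 0.43 (SE 0.05, adjusted p = 0.0026). Its second probeset rose by 0.65 (adjusted p = 0.0019). The related insulin receptor INSR differed by 0.01 (95% interval −0.14 to 0.15, adjusted p = 0.97). LRIG2, a membrane regulator of receptor signalling, differed by 0.12 (adjusted p = 0.28). STARD13 differed by −0.16 without overlap of the groups (95% interval −0.29 to −0.03, adjusted p = 0.11).

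None of the 5 cell cycle, ubiquitin and DNA maintenance members passed limma's test, where 22.2% of all genes did. At an unadjusted p under 0.05 there were 2, CCNJ and CDC34. HIC2 and STARD13, of other groups, were also under it without passing. The share of all genes at that unadjusted threshold was not counted. CCNJ, a cyclin, differed by 0.22 (95% interval 0.05 to 0.38, adjusted p = 0.082) and passed under 5 alternatives. CDC34, a ubiquitin-conjugating enzyme, differed by −0.17 (95% interval −0.29 to −0.05, adjusted p = 0.072) and passed under 7. The phosphatase CDC25A, which activates cyclin-dependent kinases, differed by 0.13, the replication nuclease and helicase DNA2 by 0.07, and the chromatin remodeller SMARCAD1 by 0.05, with adjusted p of 0.21, 0.41 and 0.73.

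Chromosomal position was not part of the choice of members, but 5 of the 27 lie on chromosome 15, and 4 of those rose, PRTG, IGDCC3, ARID3B and IGF1R. Chromosomes are those of the gene in RefSeq. Where the probesets themselves lie was not checked, including the brighter one of ARID3B, on which its values and comparison with neighbours rest. Of all 575 genes measured on chromosome 15, 112 (19.5%) rose, and on chromosome 2, which carries FIGN and MYCN, 323 of 1154 did so. These were the highest shares of risen genes among 23 chromosomes. Outside chromosome 15, 8 of 22 members (36.4%) rose and 1 fell, with a median change of 0.12. Over all genes, those on chromosome 15 included, 10.0% rose and 12.2% fell. The 22 still include FIGN and MYCN, the members on chromosome 2, which both rose. The part of these chromosome-wide shares in the members' rises was not tested.

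The measured genes next to each member were read too, 5 on each side in the order of the RefSeq annotation. The median change of the 10 neighbours lay between −0.05 and 0.09 for the 12 risen members. In 9 of the 12 the member was above each of its 10 neighbours, the exceptions being LIN28B, IGF2BP1 and ARID3A. These 12 were picked by their own rise and the neighbours were not, so that count was partly set by the choice. For the 14 members that did not pass it was 0. Around PRTG, 2 neighbours rose, 4 fell and the highest stood at 0.43. Around NR6A1, 0 rose and 2 fell, with the highest at 0.19. Over all 120 neighbour places of the risen members, 14.2% held a risen gene, and over the 140 places of members that did not pass, 14.3%. Of all genes, 10.0% rose. The 140 places include that of IGDCC3, itself a risen member, next to IGDCC4.

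**Figure D3:**
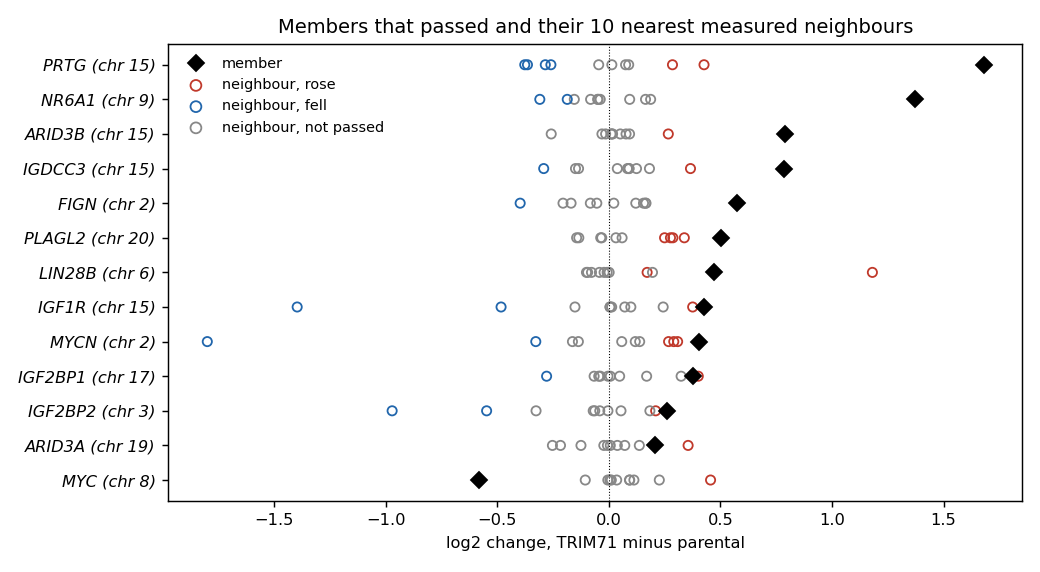
log2 change of each of the 13 members that passed (black diamonds) and of its 10 nearest measured neighbours (open circles, red for risen, blue for fallen, grey for not passed). The diamonds of PRTG and NR6A1, at 1.68 and 1.37, stand furthest from their neighbours, whose highest values are 0.43 and 0.19.

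A second list of 28 genes reported or predicted as let-7 targets was set beside the members. Of 23 measured, 4 rose (17.4%), 8 fell (34.8%) and 11 did not pass, with a median change of −0.08. Over all genes, 10.0% rose and 12.2% fell. With the filter at the median signal, 21.4% of 11100 genes rose and 2556 fell. This list was not counted under that filter. PLAGL1, a zinc finger factor of an imprinted locus, fell from 8.49 to 6.78 (−1.70, adjusted p = 3.2e-04), and ACVR1C, an activin receptor, by 1.15 on the log2 scale (adjusted p = 0.0011). CDK6, a G1 kinase, rose by 0.61 (adjusted p = 9.1e-04), and MAPK6, an atypical MAP kinase whose gene also lies on chromosome 15, by 0.72 (adjusted p = 0.0021). The lists therefore had more rises than falls in one case and more falls than rises in the other. Over the 50 genes of both, 16 rose and 9 fell, with a median of 0.08.

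Genes that make, control or carry out let-7 silencing were listed separately. Of 20, 10 rose (50%), 0 fell and 10 did not pass, with a median change of 0.18. Over all genes, 10.0% rose and 12.2% fell. The share risen was 21.4% of the 11100 genes kept by the filter at the median signal, under which this list was not counted. The 10 risen include TRIM71, the overexpressed gene itself. AGO1, an Argonaute that carries microRNAs, rose by 0.61 (adjusted p = 9.1e-04) and DICER1, which cuts precursors and is a let-7 target too, by 0.29 (adjusted p = 0.0078). TUT4, which with TUT7 adds uridines to let-7 precursors that LIN28 holds, rose from 10.36 ± 0.04 to 10.57 ± 0.03 (SD, n = 3 each; 0.22, adjusted p = 0.024). TUT7 rose by 0.30 (adjusted p = 0.031). DIS3L2, the exonuclease that degrades such uridylated precursors, rose by 0.21 (adjusted p = 0.036), and its gene lies on chromosome 2. These last 2 were named after their values had been seen. LIN28A, the paralog of LIN28B, differed by 0.13 at a dim signal of 6.13 in the parental line (adjusted p = 0.40).

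LIN28 proteins are known to bind the letters GGAG in the terminal loop of let-7 precursors, so the precursors were read for that motif on the transcribed strand. Of the 12 let-7 family hairpins in RefSeq, 9 hold GGAG after the mature 5′ arm. Among all 1560 hairpins in that table, 43.4% hold it anywhere. The hairpins below show it in capitals, or its absence, as a description of the sequence and not of binding.
let-7a-1, chr9:94175957-94176036, plus strand: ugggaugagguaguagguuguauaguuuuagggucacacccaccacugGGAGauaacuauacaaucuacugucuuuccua
let-7g, chr3:52268278-52268361, minus strand: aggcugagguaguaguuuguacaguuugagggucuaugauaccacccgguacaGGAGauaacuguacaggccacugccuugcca
let-7i, chr12:62603686-62603769, plus strand: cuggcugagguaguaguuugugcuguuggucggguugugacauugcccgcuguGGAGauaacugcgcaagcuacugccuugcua
let-7b, chr22:46113686-46113768, plus strand: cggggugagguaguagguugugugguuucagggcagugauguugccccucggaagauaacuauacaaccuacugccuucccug
Coordinates are of GRCh38.p14. let-7b, let-7a-3 and miR-98 are the precursors without the motif.

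Probesets for the let-7 precursors themselves were dim, with group means between 3.77 and 6.92, all under the median of all probesets. Of 10 precursors with a probeset of their own, 0 passed limma's test in either direction, 0 had an unadjusted p under 0.05, and the log2 changes ran from −0.15 to 0.20. Mature let-7 was not analysed here. Of 3 host transcripts, MIR99AHG, the host of let-7c, fell by 0.37 on the log2 scale (adjusted p = 0.034). HUWE1, which hosts let-7f-2 and miR-98, differed by −0.11 (adjusted p = 0.15), and MIRLET7BHG, next to let-7b, by −0.03 (adjusted p = 0.89).

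**Figure D4:**
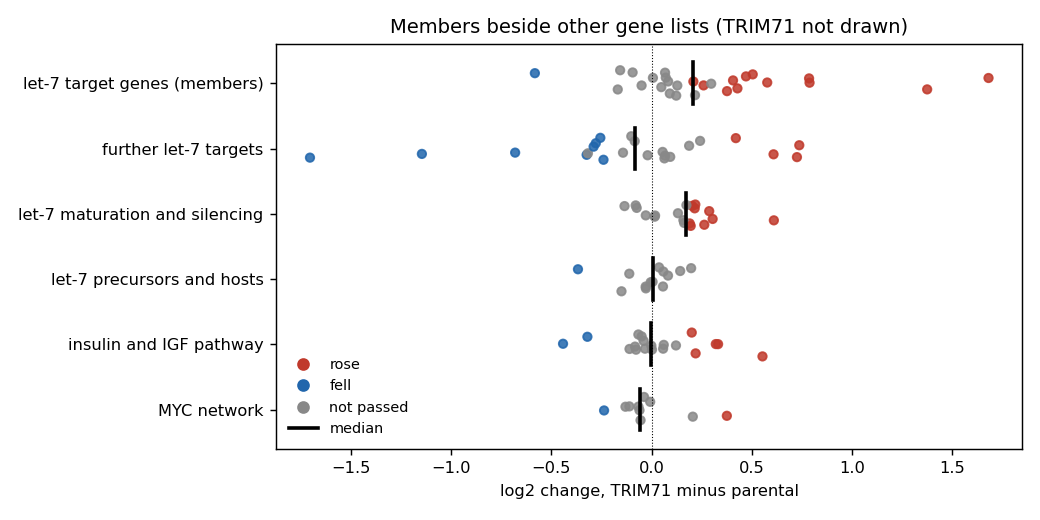
log2 change of every measured gene of the members and of 5 other lists (points, red for risen, blue for fallen, grey for not passed), with the median of the genes drawn as a black line; TRIM71 itself is left out. The members' median of 0.21 lies right of 0, that of the further let-7 targets, −0.08, lies left of it, and points of the precursor and host list cluster near 0.

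The pathways that IGF1R and MYC belong to were followed as well. Of 19 other insulin and IGF pathway genes measured, 5 rose (26.3%), 2 fell (10.5%) and 12 did not pass, with a median change of 0.00. Over all genes, 10.0% rose and 12.2% fell. Of the 11100 genes kept by the filter at the median signal, 21.4% rose, and this list was not counted under that filter. The docking protein IRS1, whose gene lies on chromosome 2, rose by 0.55 (adjusted p = 0.0017). Its relative IRS4, known for its high level in HEK293, fell by 0.32 on the log2 scale (adjusted p = 0.0053). IGFBP5, an IGF-binding protein, fell by 0.44 (adjusted p = 0.0025). The ligand IGF1 rose by 0.32 (adjusted p = 0.015) from a dim 4.50. Of 10 other genes of the MYC network, 1 rose, 1 fell and 8 did not pass, among them the third paralog MYCL (−0.06, adjusted p = 0.74). Their shares, 10% each way, were near those of all genes. MGA, a MAX-binding repressor whose gene lies on chromosome 15, rose by 0.37 (adjusted p = 0.0041). MAX, the obligate partner of MYC and MYCN, fell by 0.24 (adjusted p = 0.018). MXD1 and MXD3, which compete with MYC for MAX, differed by 0.20 and −0.13 and did not pass (adjusted p = 0.082 and 0.13).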

How the data were processed

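RNA of 6 cell line samples was amplified, labelled with biotin and hybridised to Affymetrix arrays, per the labels' protocols. The deposited values are log2 expression, which the authors made with RMA and affy, per the submitters' processing notes. Versions and the genome build are not given in the sources used here. RMA gives the arrays a common distribution, so a change in total mRNA per cell cannot be seen. The number of arrays limits the precision.

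Of 32321 probesets, 19158 had 1 gene symbol, 1388 several and 11775 none, per the platform annotation, and 19128 of the first kind matched RefSeq (GRCh38.p14) by gene ID. All probesets, with no filter, entered a linear model of group in limma 3.58.1 (R 4.3.3), which was first tested on simulated data. Members and lists were chosen with earlier results of these data known. Values on each array were printed for called members with a log2 change of at least 0.5, and for the fetal RNA-binding and chromatin genes and MYC and MYCN whatever their change. Those of ARID3A were added after its values had been seen. Up to 4 genes with the smallest adjusted p were named in each other list. Matches to the seed in the members' mRNAs were not analysed here. Alternatives were 2 variance models, 2 normalizations, 2 filters on dim probesets, 2 ways of reducing probesets to genes, a block for the replicate number, array weights, 2 stricter thresholds and each array left out.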

Additional observations from a re-analysis of the deposited data

How the results depend on the processing

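The number of members that rose, 12, lay between 10 and 13 under the alternatives run, except in a test against a fold of 1.2, which left 6. The share of all tested genes that rose, 10.0%, was 1.26% in that test. It lay between 4.30%, at an adjusted p under 0.01, and 21.4%, with the filter at the median, under the others. The number of risen members was 10 to 11 with 1 array left out, while the number of all genes that rose went from 1848 to between 979 and 1485. The number that fell, 1, became 2 with an intensity trend (robust or not), with quantile normalization, with either filter on dim probesets, and with either way of reducing probesets to genes. The added gene was CDC34 each time. Under these alternatives between 2465 and 2919 genes fell, against 2244 of 18404 in the main test, with fewer genes tested under the filters. CCNJ, which had not passed, rose with the intensity trend (robust or not), with the filter at the median and with either way of reducing probesets to genes, with an adjusted p down to 0.032. The median change of the members lay between 0.17 and 0.22 with 1 array left out, and moved to 0.12 for members outside chromosome 15, a choice made after seeing the data. Of 13 called members, 7 kept their call under every alternative, and 0 changed sign under any. LIN28B, IGF2BP1, IGF1R and MYCN lost theirs only against the fold of 1.2. SMARCAD1 and INSR, which had not passed, changed sign under 1 and 5 alternatives. With the replicate number as a block, 10 members rose and 1 fell, where 5.54% of all genes rose. IGF2BP2 and ARID3A lost their calls there. The replicate numbers share no stated source, and the deviations of same-numbered arrays correlated at 0.07, −0.19 and 0.11, so they were not taken as pairs. Those of differently numbered arrays correlated at −0.28 to 0.24, and a pairing in another order was not tested. MYCN, STARD13 and IGDCC4 had no value with the stricter filter, being dim, which limits what their changes can show.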

Other observations

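Some genes next to members changed by more than the member did, and are named here after their values were seen. PRDM1, a transcriptional repressor of plasma cells and germ cells that lies near LIN28B, rose by 1.18 on the log2 scale (limma adjusted p = 0.0015). VSNL1, a neuronal calcium sensor near MYCN, fell by 1.80 (adjusted p = 5.0e-04), and ARRDC4, an arrestin-like regulator of glucose uptake near IGF1R, fell by 1.40 (adjusted p = 5.0e-04). Next to FNDC3A, which did not pass, CAB39L, a relative of the kinase scaffold CAB39, rose by 1.07 (adjusted p = 0.0047).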
